A study of Mus musculus with 4 samples.

Results

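The genes described here are 42 genes of the DNA replication machinery, taken as a named list from the deposited count table of wild-type (wt) and Top2β-null mouse embryonic fibroblasts (MEF cells). The list was set by function and covers replication licensing, the helicase, the polymerases, the sliding clamp and nucleotide synthesis. All 42 were matched to 1 gene identifier each, out of 54842 gene identifiers in the table, and all 42 passed the filter on low counts, as did 25085 genes in all. Untreated cultures of each genotype gave 2 libraries of total RNA, sequenced after removal of ribosomal RNA. Top2β is a DNA topoisomerase, an enzyme that passes one DNA duplex through another to release supercoils and tangles. The Top2β-null MEF cells were a gift from other laboratories and came from mice lacking the enzyme, so the origin of the cells and the loss of Top2β cannot be told apart. No source used here says that the libraries of a genotype came from separate cultures, and the p-values then measure only the spread between these libraries.

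DNA replication starts at origins, where the origin recognition complex, Cdc6 and Cdt1 load the MCM2-7 ring onto DNA in G1 phase. In S phase, Cdc45 and the GINS complex turn the ring into an active helicase, polymerase α-primase lays down primers, and polymerases δ and ε extend them with the clamp PCNA, which the RFC complex loads. The RPA complex coats single-stranded DNA, and Fen1 and DNA ligase 1 join the Okazaki fragments. Many of these genes are transcribed around the entry into S phase under control of E2F factors, so in cultured fibroblasts their RNA reflects in part how many cells are cycling.

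The libraries held between 133116830 and 149647278 counts, and the 42 genes took between 0.374% and 0.379% of them. Top2b itself, at chr14:16365179-16435462 on GRCm38, gave 18259 and 18465 normalized counts with wt against 3879 and 3789 with Top2β-null MEF cells. Normalized counts are counts brought to a common effective library size, the geometric mean of the 4 libraries. The fibroblast gene Col1a1 was abundant in all 4 libraries, at 112305 to 298044 normalized counts, but the fibroblast marker list was not at one level. Its summed normalized counts were 1300520 and 1325160 in wt against 885709 and 890673 in Top2β-null MEF cells, and of its 9 genes 4 were higher, 4 were lower and 1 did not pass the test. Dcn, a matrix proteoglycan, was at 226 and 223 normalized counts in wt against 7053 and 7239 in Top2β-null MEF cells. The summed leukocyte markers, nearly all of them Cd68, lay at 1671 and 1712 against 349 and 347, with Tyrobp at 0 in every library and Ptprc between 2.07 and 6.76, while Itgam of the same list went from 1.01 and 0.97 to 28.0 and 28.7. The sum of the endothelial markers was 165 and 162 in wt against 252 and 258 in Top2β-null MEF cells. Of its 4 genes Kdr was higher (71.7 and 68.6 against 203 and 205), Tek was lower (43.4 and 34.8 against 9.32 and 3.96) and the other 2 did not pass the test. The epithelial markers summed to 67.6 and 70.5 against 19.7 and 19.8. The part of these differences in the results below was not tested.

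As a group the replication genes did not move in one direction. Of the 42 genes, 15 were higher and 19 were lower in Top2β-null MEF cells at an adjusted p below 0.05, and 8 did not pass. Over all genes tested, 32.8% were higher and 33.7% lower by the same rule, and 66.4% changed in either direction. Among genes with a mean above 100 normalized counts, which all 42 genes have, 37.3% were higher and 40.3% lower, 77.6% together. The median log2 fold change of the 42 genes was -0.033, beside -0.0058 over all genes tested, and these medians were 0.037 and 0.064 when the libraries were scaled to their total count. The changes were also small, with a median absolute log2 fold change of 0.22 against 0.35 over the 16656 genes with a mean above 100. Their summed normalized counts were 539640 and 544746 in wt against 515673 and 519311 in Top2β-null MEF cells. This difference depends on the scaling, since as a percentage of the total count they took 0.375% and 0.377% in wt against 0.374% and 0.379%, which overlap. In bulk RNA, fewer cells in S phase and less RNA per cell cannot be told apart. Of the 42 genes, only Orc6 passed cut-offs of a log2 fold change beyond 1, a mean above 100 and an adjusted p below 0.05. In either direction 2702 genes passed them, 10.8% of the 25085 tested, but only the 16656 genes with a mean above 100 could pass. A further 6 genes differed by more than 0.5 on the log2 scale: Rfc3, Rpa3 and Mcm7 were higher, and Rpa1, Tk1 and Prim1 were lower. The libraries of the genotypes did not overlap for 38 of the 42 genes, 16 of them higher and 22 lower. Over all genes tested this held for 81.9% (40.4% higher and 41.5% lower), and over the genes with a mean above 100 for 88.6%.

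**Figure D1:**
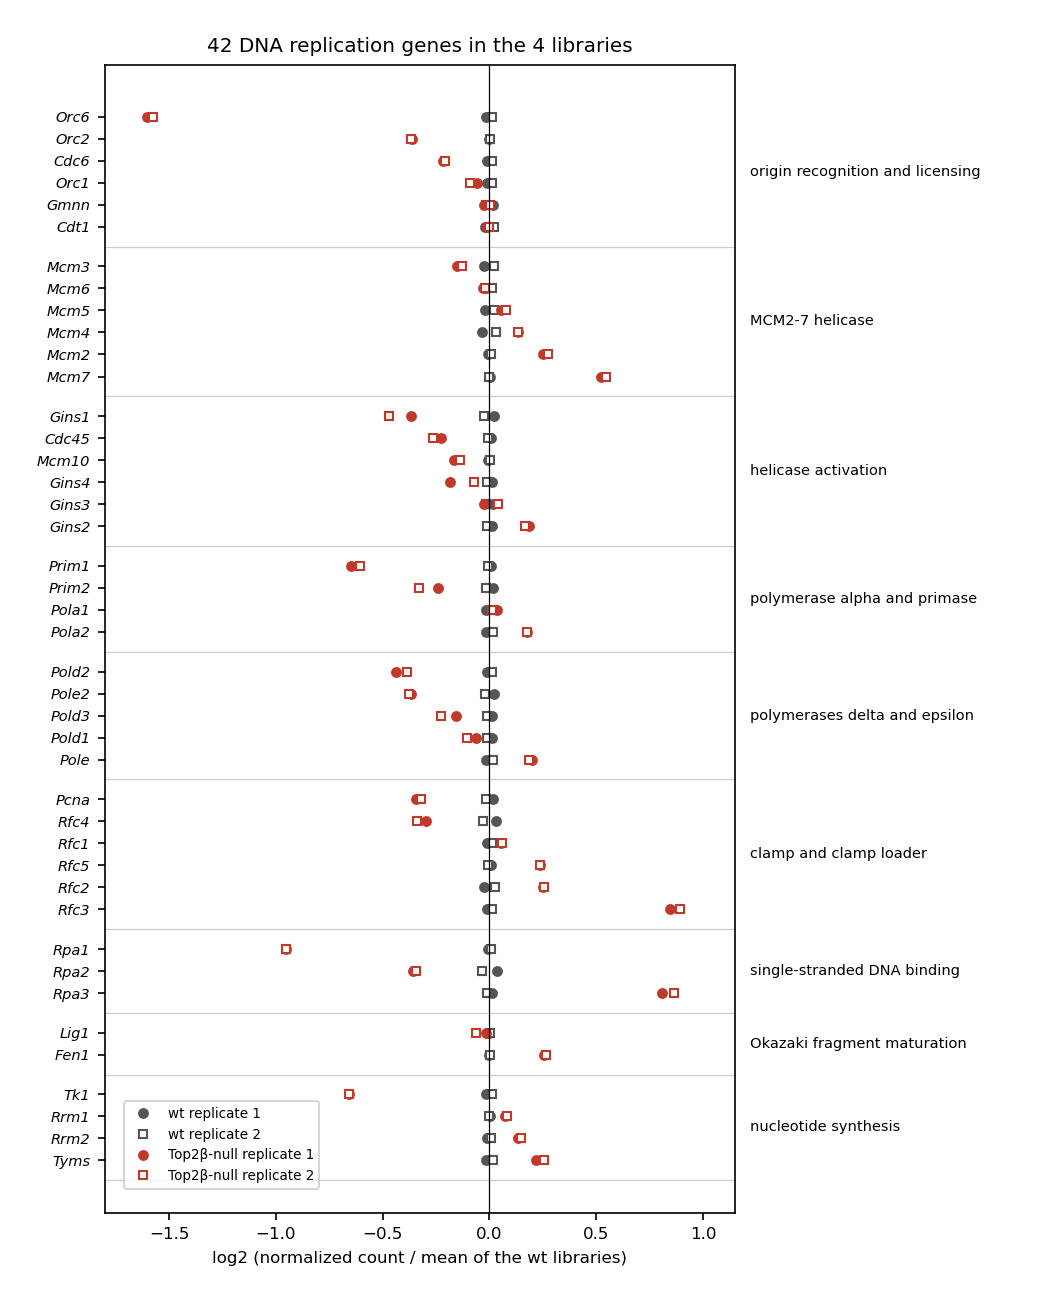
Each row is 1 of the 42 replication genes, grouped by role, and the horizontal axis is the log2 ratio of the normalized count of a library to the mean of the wt libraries (grey wt, red Top2β-null, filled circle replicate 1, open square replicate 2). Replicates sit close together, Orc6 lies farthest to the left near -1.59, and Rfc3 and Rpa3 lie farthest to the right.

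Some promoters of these genes share a sequence feature that the list did not use. E2F factors are known to bind sites close to the words TTTCCCGC, TTTGGCGC, TTTCGCGC and TTTGCCGC, and these were searched on both strands of RefSeq promoter windows of GRCm38.p6, from 250 bases before to 50 bases after the gene start. A window was given for 34 of the 42 genes, and 14 of these (41.2%) held at least 1 of the words, against 2.61% of 27025 genes and 3.32% of protein-coding genes. The following stretches of 30 bases show each full match in capitals, of which Rfc3 has 2, 5′ to 3′ on the strand of the gene, for genes that were higher (Mcm7 and Rfc3), lower (Cdc6, Mcm3 and Pole2) or not past the test (Cdt1, Mcm6 and Lig1) in Top2β-null MEF cells. They lie at chr5:138171849-138171878 on the minus strand (Mcm7), chr5:151651200-151651229 on the minus strand (Rfc3), chr11:98908002-98908031 on the plus strand (Cdc6), chr1:20820263-20820292 on the minus strand (Mcm3), chr12:69228162-69228191 on the minus strand (Pole2), chr8:122568035-122568064 on the plus strand (Cdt1), chr1:128359734-128359763 on the minus strand (Mcm6) and chr7:13278841-13278870 on the plus strand (Lig1).
Mcm7: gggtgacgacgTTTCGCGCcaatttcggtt
Rfc3: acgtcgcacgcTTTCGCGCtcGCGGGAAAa
Cdc6: gccggtggagaGCGGGAAAtcgcctggggt
Mcm3: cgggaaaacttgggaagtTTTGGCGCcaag
Pole2: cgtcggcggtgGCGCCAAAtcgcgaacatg
Cdt1: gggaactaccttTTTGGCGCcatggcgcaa
Mcm6: gattggacgggTTTGGCGCgaagtagctca
Lig1: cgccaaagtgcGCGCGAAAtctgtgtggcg

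The windows of the 14 genes held 20 matches, and matches to different words overlapped each other in Mcm5 and Mcm6. Having a match did not go with one direction. Of the 14 genes with a match, 3 were higher and 5 lower, beside 37.3% and 40.3% of genes with a mean above 100. The median log2 fold change of these 14 genes was -0.033, while that of the 20 genes with a window and no match was -0.20. Orc6, Rpa1, Rpa3, Tk1 and Prim1, which are 5 of the 7 genes that differed most, had no match in the window, which says only that these letters are not there. The other replication genes, a list of 36 further factors, had a match in 7 of 29 windows (24.1%).

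In the origin recognition and licensing group, none of 6 genes was higher and 3 were lower. The shares over genes with a mean above 100 were 37.3% and 40.3%. Cdt1 passed as higher when scaled to the total count (log2 fold change 0.064, adjusted p = 0.042). Orc6, the smallest subunit of the origin recognition complex (ENSMUSG00000031697.12, chr8:85299632-85308278, plus strand), gave 26160 and 26683 normalized counts in wt against 8692 and 8874 in Top2β-null MEF cells. The Top2β-null mean was 33.2% of the wt mean, far outside the spread between replicates, and the groups did not overlap. The log2 fold change was -1.59 (SE 0.026, adjusted p = 2.29e-17). Per kilobase of exon, Orc6 was the second of the 42 genes in wt, behind Pcna, with a mean of 10701 normalized counts per kilobase, and it was at 3557 in Top2β-null MEF cells, where it ranked 11 of 42. Orc2, another subunit of the complex, was lower by a log2 fold change of -0.36, and Cdc6, the ATPase that helps to load the helicase, by -0.21. Orc1, the large subunit of the complex, had a log2 fold change of -0.076 that did not pass the test (adjusted p = 0.055). Orc2 shares 29.8% of its exon bases with Nif3l1 (log2 fold change -0.22) and Orc1 shares 10.8% with Gm12743, both on the opposite strand.

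Cdt1, which brings the MCM2-7 ring to origins, and Gmnn, which encodes its inhibitor geminin, had no direction that held, since both changed sign with the scaling between libraries. Cdt1 gave 11351 and 11707 normalized counts in wt against 11450 and 11518 in Top2β-null MEF cells, with overlapping groups and a log2 fold change of -0.0057 (SE 0.026, adjusted p = 0.86). The log2 fold change of Gmnn was -0.011 (SE 0.039), and its groups overlapped as well. Of the summed level of both genes per kilobase, Cdt1 took 64.3% ± 0.89 (SD, n = 2) in wt against 64.4% ± 0.21 (SD, n = 2) in Top2β-null MEF cells.

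Orc6 lies in a stretch of chromosome 8 in which most genes were lower. Within 500 kb of Orc6 there were 30 other protein-coding genes with a mean above 100 normalized counts, of which 28 had a negative log2 fold change and 19 differed by more than 1 on the log2 scale, with a median of -1.21. From 2 Mb before to 1 Mb after Orc6, limits set after the values were seen, 54 of 63 genes were lower and 38 (60.3%) were below -1, with a median of -1.18. In the adjoining segments, out to 6 Mb on each side, 2 of 29 genes were lower, 24 were higher and the median was 0.37. The other 620 genes of chromosome 8 had a median of 0.16, and 10.5% of them were below -1, against 8.56% of all 12144 protein-coding genes over that level. Rnaseh2a, the catalytic subunit of the enzyme that removes ribonucleotides from DNA, lies 341 kb from Orc6 in the same stretch and was lower too, with a log2 fold change of -1.06. The 5 other replication genes of the list on chromosome 8, Cdt1, Mcm5, Gins2, Gins3 and Gins4, lie outside the stretch and had log2 fold changes between -0.13 and 0.18. The copy number of DNA was not measured in these libraries, and the part of the stretch in the value of Orc6 was not tested.

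**Figure D2:**
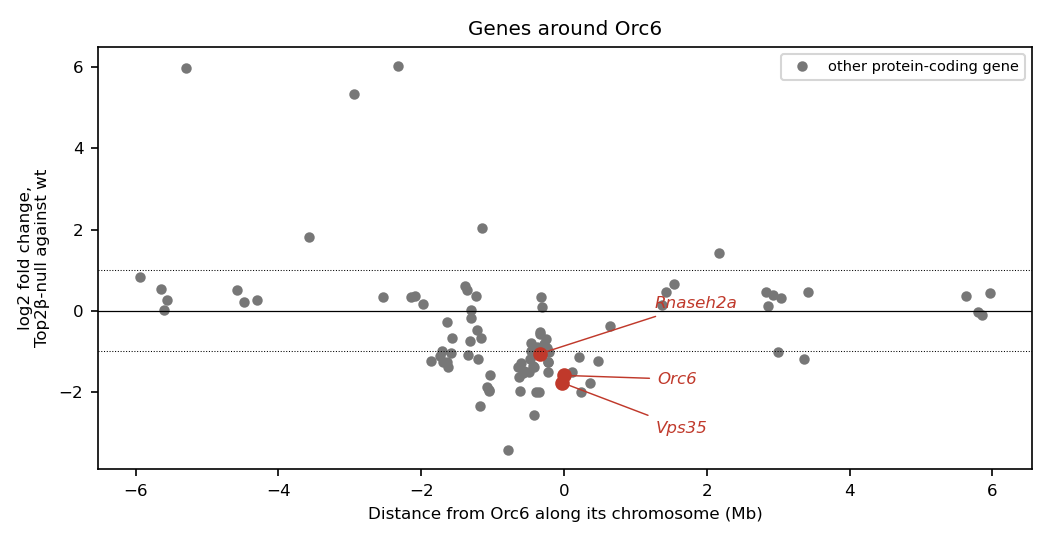
Points are protein-coding genes with a mean above 100 normalized counts, the horizontal axis is the distance from Orc6 along chromosome 8 in Mb, and the vertical axis is the log2 fold change of Top2β-null against wt MEF cells, with dotted lines at 1 and -1. Genes from 2 Mb before to 1 Mb after Orc6 lie mostly below 0, with a median of -1.18, and those around them mostly above.

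Orc6 also shares 171 exon bases, 6.93% of its exon length, with the gene Vps35 on the opposite strand. Vps35, part of the retromer complex that sorts proteins in endosomes, gave 139716 and 139906 normalized counts in wt against 40749 and 41251 in Top2β-null MEF cells. In this table the strand seems not to have been used in counting. Among 74 genes of more than 300 exon bases, with at least 95% of these inside the exons of an expressed gene on the opposite strand, the median ratio of their counts per kilobase to those of the host gene was 0.86. How many Orc6 reads came from Vps35 was not tested.

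The MCM2-7 helicase genes were among the most abundant of the list per kilobase. Of the 6 genes 4 were higher and 1 was lower, beside the 37.3% and 40.3% of genes with a mean above 100, and 3 were higher without wt replicate 1 or without Top2β-null replicate 2. Mcm7 (ENSMUSG00000029730.16, chr5:138164583-138172422, minus strand) gave 26312 and 26284 normalized counts in wt against 37739 and 38400 in Top2β-null MEF cells. Both Top2β-null libraries lay above both wt libraries, with a log2 fold change of 0.53 (SE 0.025, adjusted p = 1.44e-11). Mcm2, Mcm4 and Mcm5 were higher by 0.26, 0.13 and 0.065 on the log2 scale, whereas Mcm3 was lower by a log2 fold change of -0.14. Mcm6 had the smallest difference of the 6, with 23474 and 23923 normalized counts in wt against 23178 and 23359 in Top2β-null MEF cells. Its log2 fold change of -0.026 (SE 0.025) did not pass the test (adjusted p = 0.37), although the groups did not overlap, and its sign changed when the libraries were scaled to their total count. The call of Mcm5 was lost without wt replicate 1 (log2 fold change 0.046, adjusted p = 0.27) and without Top2β-null replicate 2 (0.057, adjusted p = 0.051).

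The 6 subunits form a ring with 1 copy of each, and their share of the summed level per kilobase does not depend on the scaling between libraries, though it does on the exon lengths used. Mcm7 made up 16.5% ± 0.28 (SD, n = 2) of this sum in wt against 21.6% ± 0.062 (SD, n = 2) in Top2β-null MEF cells. For Mcm3 the share went from 19.0% to 15.6%, and that of Mcm4 was 16.2% against 16.1%. In wt the shares ran from 12.5% (Mcm2) to 21.7% (Mcm5), and in Top2β-null MEF cells from 12.5% (Mcm6) to 21.6% (Mcm7). Around Mcm7, 18 of 19 protein-coding neighbours within 500 kb were higher as well, with a median log2 fold change of 0.71. They include Ap4m1 and Cops6, which overlap Mcm7 on the opposite strand and had log2 fold changes of 0.70 and 0.67. Whether these bear on the value of Mcm7 was not tested.

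Among the 6 genes of helicase activation, 1 was higher and 4 were lower, beside 37.3% and 40.3% of genes with a mean above 100. Gins1, a subunit of the GINS complex, had the largest difference, with 2411 and 2335 normalized counts in wt against 1840 and 1715 in Top2β-null MEF cells. The groups did not overlap and the log2 fold change was -0.42 (SE 0.048, adjusted p = 1.21e-06). Cdc45, which binds the MCM2-7 ring together with GINS, was lower by a log2 fold change of -0.25, Mcm10, which helps to activate the helicase, by -0.15, and Gins4 by -0.13, a call that was lost with DESeq2 (adjusted p = 0.059), when scaled to the total count (log2 fold change -0.055, adjusted p = 0.24) and without Top2β-null replicate 1 (-0.049, adjusted p = 0.37). Gins3 had no direction, with 2703 and 2644 normalized counts in wt against 2624 and 2747 in Top2β-null MEF cells, a log2 fold change of 0.0071 (SE 0.042) and overlapping groups, and it changed sign when a library was left out. Gins2 was higher by 0.18, but 67.3% of its exon bases are shared with Gse1 on the opposite strand, which had a log2 fold change of 0.83. Reads of these genes cannot be told apart where the strand is not used. Gins4 took the largest share of the GINS sum per kilobase in both genotypes, 46.8% ± 0.11 (SD, n = 2) in wt against 46.3% ± 1.6 (SD, n = 2) in Top2β-null MEF cells. Its rank also depends on the exon lengths used.

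Polymerase α-primase is made of the catalytic subunit Pola1, the accessory subunit Pola2 and the primase subunits Prim1 and Prim2. Both primase genes were lower, while the polymerase genes were not. Prim1, which makes the RNA primer (ENSMUSG00000025395.14, chr10:128015168-128030037, plus strand), gave 9594 and 9517 normalized counts in wt against 6106 and 6280 in Top2β-null MEF cells. The Top2β-null mean was 64.8% of the wt mean, and the log2 fold change was -0.63 (SE 0.026, adjusted p = 4.02e-12). Prim2 was lower by a log2 fold change of -0.28. Pola2 was higher by 0.18, and Pola1 gave 13654 and 13940 normalized counts in wt against 14131 and 13905 in Top2β-null MEF cells. The Pola1 groups overlapped (log2 fold change 0.023, SE 0.025, adjusted p = 0.45), but the difference passed the test when scaled to the total count (0.093, adjusted p = 0.0043). Within the complex, the share of Prim1 in the sum per kilobase was 41.1% ± 0.33 (SD, n = 2) in wt against 31.0% ± 0.73 (SD, n = 2) in Top2β-null MEF cells, so that in the latter it stood beside Pola1 at 30.8%. Of 30 neighbours of Prim1 within 500 kb, 25 were also lower, with a median of -0.44, on a chromosome where 125 of 596 other genes had a positive log2 fold change.

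Of 5 genes of polymerases δ and ε, 4 were lower and 1 higher, beside 40.3% and 37.3% of genes with a mean above 100. Pold2, an accessory subunit of polymerase δ, gave 8597 and 8758 normalized counts in wt against 6406 and 6651 in Top2β-null MEF cells, and the groups did not overlap. Its log2 fold change was -0.41 (SE 0.028, adjusted p = 1.66e-09). Pold3, another accessory subunit, was lower by a log2 fold change of -0.19. The catalytic subunit Pold1 had the smallest difference of these, with 7344 and 7216 normalized counts in wt against 6974 and 6769 in Top2β-null MEF cells. Its log2 fold change of -0.083 (SE 0.028) passed the test (adjusted p = 0.015), but not with DESeq2 (adjusted p = 0.11). In edgeR the call was also lost when scaled to the total count (log2 fold change -0.014, adjusted p = 0.69), without the filter (adjusted p = 0.079), with genes fitted alone (adjusted p = 0.053), without wt replicate 1 (-0.071, adjusted p = 0.11) and without Top2β-null replicate 2 (-0.059, adjusted p = 0.13). In polymerase ε the catalytic subunit and its partner moved apart, with Pole higher by 0.19 and Pole2 lower by a log2 fold change of -0.37. Pole2 took 36.0% ± 0.84 (SD, n = 2) of the sum of both genes per kilobase in wt against 27.6% ± 0.031 (SD, n = 2) in Top2β-null MEF cells.

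Pcna, the clamp gene, was lower, while the genes of its loader RFC went in different directions. Pcna was the most abundant of the 42 genes per kilobase in both genotypes, at 12078 normalized counts per kilobase in wt against 9598 in Top2β-null MEF cells, and its log2 fold change was -0.33. The copy Pcna-ps2 had 1410 and 1352 normalized counts in wt against 2332 and 2413 in Top2β-null MEF cells, the opposite direction to Pcna, and reads that fit both cannot be assigned with certainty. Rfc3, a small subunit of the loader (ENSMUSG00000033970.15, chr5:151642756-151651242, minus strand), gave 4349 and 4415 normalized counts in wt against 7888 and 8139 in Top2β-null MEF cells. It had the largest increase of the list, 1.83-fold, with a log2 fold change of 0.87 (SE 0.029, adjusted p = 1.86e-13). Rfc2 and Rfc5 were higher by 0.25 and 0.24, and Rfc4 was lower by a log2 fold change of -0.32. Rfc1, the large subunit, gave 16272 and 16506 normalized counts in wt against 16990 and 17067 in Top2β-null MEF cells. The groups did not overlap, but the log2 fold change of 0.055 (SE 0.024) did not pass the test (adjusted p = 0.057). It did pass under 6 alternatives, which were TMM from genes only (adjusted p = 0.021), the total count (log2 fold change 0.13, adjusted p = 0.00032), no filter (adjusted p = 0.016), a filter at 100 counts (adjusted p = 0.026), genes fitted alone (adjusted p = 0.010) and the fit without Top2β-null replicate 1 (0.080, adjusted p = 0.0057). By RNA level per kilobase, Rfc3 and Rfc4 thereby changed places among the RFC genes. Protein was not measured. Rfc3 had 15.4% ± 0.16 (SD, n = 2) of the RFC sum per kilobase in wt against 24.3% ± 0.45 (SD, n = 2) in Top2β-null MEF cells, and Rfc4 had 20.7% ± 0.64 (SD, n = 2) and 14.4% ± 0.35 (SD, n = 2). Rfc4 shares 12.7% of its exon bases with Eif4a2, Rfc2 shares 15.1% with Lat2 and Rfc5 shares 10.7% with Wsb2, each on the opposite strand.

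The 3 genes of the RPA complex had the widest range of log2 fold changes among the 9 role groups. Rpa1, the large subunit that makes most of the contact with single-stranded DNA (ENSMUSG00000000751.13, chr11:75298166-75348324, minus strand), gave 33573 and 33848 normalized counts in wt against 17421 and 17426 in Top2β-null MEF cells. It was lower by a log2 fold change of -0.95 (SE 0.024, adjusted p = 6.94e-15), just short of the cut-off of 1. Rpa3, the smallest subunit (ENSMUSG00000012483.4, chr6:8255936-8259173, minus strand), gave 1444 and 1420 normalized counts in wt against 2507 and 2611 in Top2β-null MEF cells. It was higher by 0.84 on the log2 scale (SE 0.046, adjusted p = 1.22e-10). Rpa2, the middle subunit, gave 4735 and 4506 normalized counts in wt against 3610 and 3643 in Top2β-null MEF cells (log2 fold change -0.35, SE 0.035, adjusted p = 2.35e-07). None of the 3 genes had overlapping groups. In wt, Rpa1 made up 68.3% ± 0.66 (SD, n = 2) of the RPA sum per kilobase and Rpa3 14.2% ± 0.12 (SD, n = 2). In Top2β-null MEF cells these shares were 47.4% ± 0.51 (SD, n = 2) and 34.2% ± 0.60 (SD, n = 2), and the share of Rpa2 went from 17.4% in wt to 18.4%. Among the neighbours within 500 kb, 14 of 20 genes around Rpa1 were lower, with a median of -0.40, and 4 of 6 around Rpa3 were higher, with a median of 0.54.

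**Figure D3:**
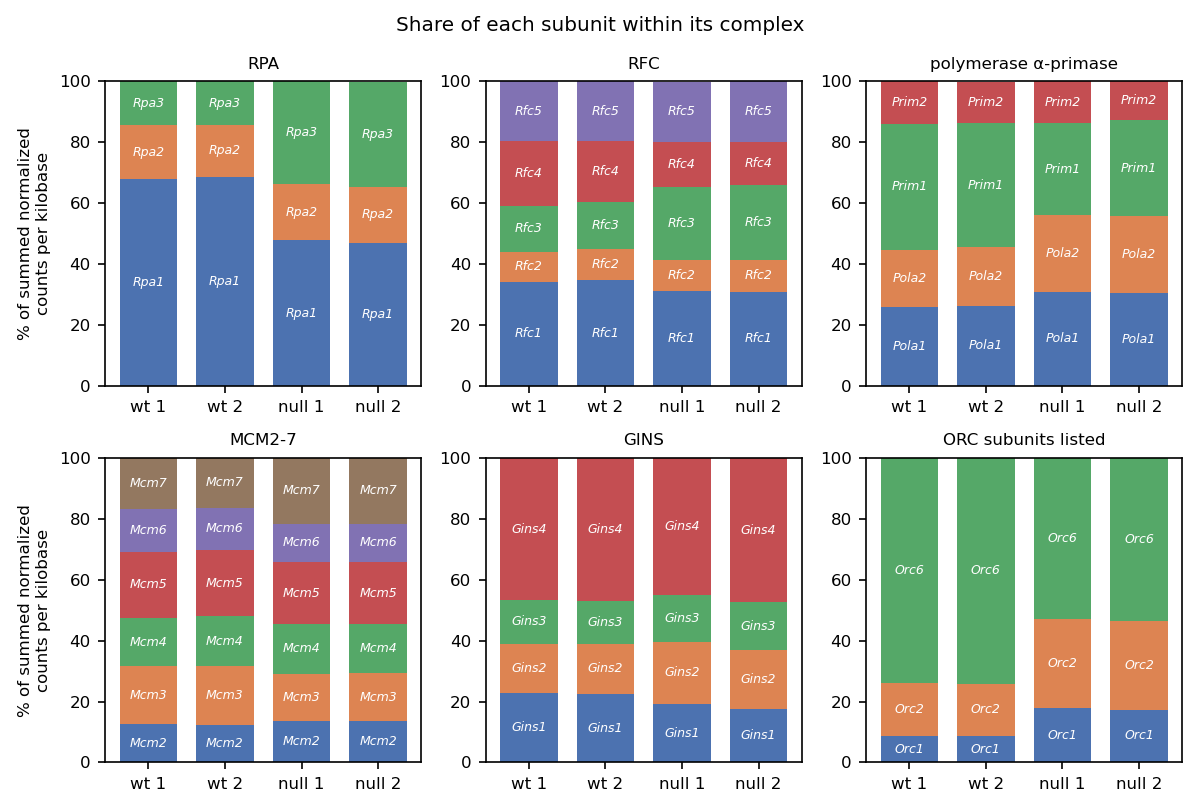
Stacked bars give, for each of the 4 libraries, the percentage that each subunit takes of the summed normalized counts per kilobase of its complex. Replicates are alike, and between genotypes Rpa1 goes from 68.3% to 47.4%, Rfc3 from 15.4% to 24.3%, Prim1 from 41.1% to 31.0%, Mcm7 from 16.5% to 21.6% and Orc6 from 74.0% to 53.1% of the origin recognition genes listed.

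In Okazaki fragment maturation, Fen1, the nuclease that trims the flap between fragments, was higher and Lig1, the ligase that seals the nick, was not past the test. Fen1 gave 4638 and 4652 normalized counts in wt against 5546 and 5573 in Top2β-null MEF cells (log2 fold change 0.26, SE 0.029, adjusted p = 8.52e-07). As 78.8% of its exon bases are shared with the antisense gene Gm10143, which had a log2 fold change of 0.29, reads of the 2 genes cannot be told apart. Lig1 gave 13817 and 13868 normalized counts in wt against 13708 and 13243 in Top2β-null MEF cells. The groups did not overlap, and the log2 fold change was -0.039 (SE 0.026, adjusted p = 0.20), with a change of sign when scaled to the total count.

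Of the 4 genes of nucleotide synthesis, 3 were higher and 1 was lower, beside 37.3% and 40.3% of genes with a mean above 100. Tk1, the thymidine kinase that recovers thymidine in S phase (ENSMUSG00000025574.13, chr11:117815526-117826092, minus strand), gave 18586 and 18942 normalized counts in wt against 11888 and 11897 in Top2β-null MEF cells. The Top2β-null mean was 63.4% of the wt mean (log2 fold change -0.66, SE 0.025, adjusted p = 8.36e-13). Tyms, which makes thymidylate by the other route, was higher by 0.24. The ribonucleotide reductase genes changed little. Rrm1, the large subunit, gave 41345 and 41141 normalized counts in wt against 43344 and 43696 in Top2β-null MEF cells, which did not overlap (log2 fold change 0.078, SE 0.025, adjusted p = 0.013), and the call was lost without wt replicate 2 (0.074, adjusted p = 0.067). Rrm2, the small subunit, was higher by 0.14, and it took 68.8% ± 0.27 (SD, n = 2) of the sum of both genes per kilobase in wt against 69.7% ± 0.045 (SD, n = 2) in Top2β-null MEF cells.

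Levels per kilobase of exon ranged in wt from 787 normalized counts per kilobase for Rfc2 to 12078 for Pcna, and in Top2β-null MEF cells from 622 for Pole2 to 9598 for Pcna. The length used was that of all annotated exons of a gene together, so the order between genes depends on the annotation too. In wt, the order from the top was Pcna, Orc6, Rrm2, Mcm5, Mcm3 and Rpa1. In Top2β-null MEF cells it was Pcna, Rrm2, Mcm7, Mcm5, Mcm4 and Mcm3, so that Orc6 and Rpa1 had left the first 6 places and Mcm7 and Mcm4 had entered. Each of these genes lay above the next in both libraries of its genotype. Over the whole order, 30 of 41 neighbouring pairs in wt against 33 of 41 in Top2β-null MEF cells were separated in this way. Neighbours whose levels overlapped between libraries, and which therefore have no order, include Mcm7 and Mcm4 in wt, and Lig1 and Rpa1 in Top2β-null MEF cells.

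The direction of the replication genes went with that of their chromosomal surroundings in part. All 7 genes on chromosome 5 (Mcm7, Pole, Rfc1, Rfc2, Rfc3, Rfc5 and Tyms) had a positive log2 fold change, as did 69.5% of the 752 other protein-coding genes there with a mean above 100. All 4 on chromosome 11 (Cdc6, Pold2, Rpa1 and Tk1) and all 3 on chromosome 2 (Mcm10, Gins1 and Pcna) had a negative one, where 40.7% and 33.5% of the other genes were positive. Both on chromosome 6, Mcm2 and Rpa3, had a positive one, as did 81.7% of the other genes. On several other chromosomes this did not hold. On chromosome 1 the 4 genes (Orc2, Mcm3, Mcm6 and Prim2) were negative whereas 63.4% of the other genes were positive. On chromosome 7, 1 of 4 was positive (Rrm1) beside 55.9% of the other genes, and on chromosome 16, 1 of 3 (Mcm4) beside 58.7%. Gmnn on chromosome 13 was negative where 55.4% were positive, and Pola1 on chromosome X was positive where 39.2% were, though neither gene passed the test. Taken relative to the median of its chromosome, the log2 fold change of Orc6 was -1.71, that of Rpa1 -0.85, that of Rfc3 0.68 and that of Tk1 -0.56, and these 4 genes were then the only ones of the list beyond 0.5. The chromosome median does not take in closer surroundings. Within 500 kb the median of the neighbours was -1.21 for Orc6, -0.40 for Rpa1, -0.24 for Tk1 and 1.39 for Rfc3, which has 2 such neighbours.

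Within 500 kb, a window chosen after the values were seen, the median log2 fold change of the protein-coding neighbours had the sign of the replication gene in 27 of 42 cases. Across the 42 genes, Pearson's r between both values was 0.75 and Spearman's rho was 0.61. Without Orc6, r was 0.65, and with neighbours at least 10 kb away, r was 0.61. These are descriptions across genes of the same 4 libraries, and genes are not independent replicates. The same values were not taken for other genes, so whether this is particular to replication genes was not tested. Rfc4 and Gins4 went the other way, as none of the 6 and 7 genes around them was lower.

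**Figure D4:**
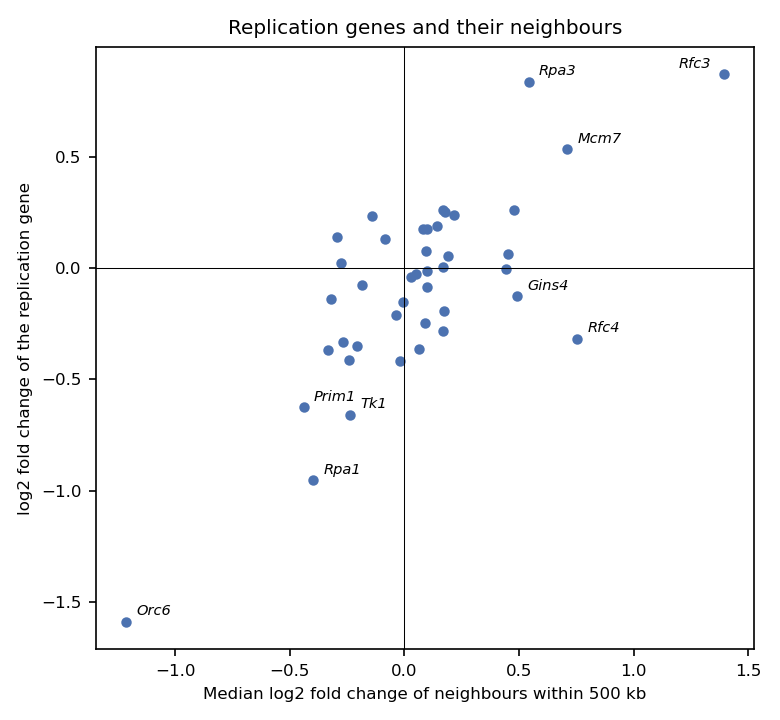
Each point is 1 of the 42 replication genes, with the median log2 fold change of protein-coding neighbours within 500 kb on the horizontal axis and its own log2 fold change on the vertical axis. Orc6 lies at the lower left, Rfc3, Rpa3 and Mcm7 at the upper right, and Rfc4 and Gins4 are below 0 with neighbours above 0.

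The rest of the pathway was read from a list of 36 other replication genes, of which 10 were higher and 19 lower (27.8% and 52.8%, beside 37.3% and 40.3% of genes with a mean above 100), with a median log2 fold change of -0.087. Of these, 3 passed the cut-off of 1, each of them lower, and only 1 of them did when scaled to the total count. In either direction 2702 genes passed it, out of the 16656 genes with a mean above 100 that could. Pold4, the smallest subunit of polymerase δ, gave 3037 and 3125 normalized counts in wt against 990 and 976 in Top2β-null MEF cells, a log2 fold change of -1.65. Rnaseh2a, described above beside Orc6, gave 10284 and 10323 against 4888 and 5015. Rrm2b, the p53-induced small subunit of ribonucleotide reductase, gave 3362 and 3318 against 1633 and 1645, a log2 fold change of -1.03. Recql4, a helicase that takes part in origin firing, was lower by a log2 fold change of -0.95. None of these 4 genes had overlapping groups.

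Regulators of the same genes and of the cell cycle did not share a direction either. Of 16 E2F and related transcription factors, 7 were higher and 7 lower, beside 37.3% and 40.3% of genes with a mean above 100. Rb1, which holds E2F factors in check, was lower by a log2 fold change of -1.28, E2f6 by -0.92, E2f2 by -0.86 and E2f7 by -0.68. Among those that were higher, Foxm1, which drives genes of G2 and mitosis, had a log2 fold change of 0.68 and E2f4, a repressor of the family, one of 0.39. Of 9 G1/S regulators, 4 were higher and 4 lower, beside 37.3% and 40.3% of genes with a mean above 100. Ccne1, the cyclin that drives entry into S phase, was higher by 0.97 and Ccna2, the cyclin A gene, by 0.30, and Cdk6, a G1 kinase, and Skp2, which marks cell cycle inhibitors for degradation, had log2 fold changes of -0.55 and -0.45. Of 12 G2/M genes, 7 were higher and 4 lower, beside 37.3% and 40.3% of genes with a mean above 100. Aurkb and Kif11, which act in mitosis, were at 0.81 and 0.48. Ccnb2, a mitotic cyclin, was at 0.39, and Cdc20, an activator of the anaphase complex, was at -0.47.

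**Figure D5:**
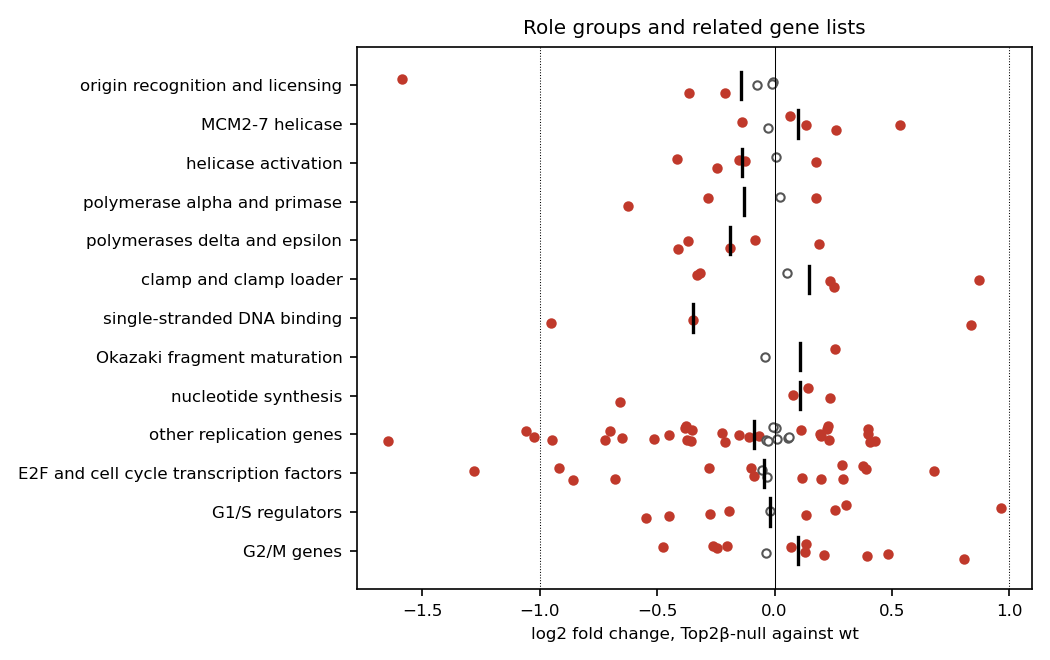
Points are genes, placed by their log2 fold change of Top2β-null against wt MEF cells for the 9 role groups of the replication genes and for the 4 further lists, with the median as a black bar and dotted lines at 1 and -1. Red points passed an adjusted p of 0.05 and open points did not, and every list but origin licensing has points on both sides of 0.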

How the data were processed

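Total RNA libraries of wt and Top2β-null MEF cells were made with a stranded kit after removal of ribosomal RNA. The authors used STAR to align trimmed reads to mm10 and TEtranscripts to count them, and the values they deposited are raw counts, 1 for each gene or repeat family in a library. The strand setting and the mode of TEtranscripts are not given in the sources used here. Symbols and positions (GRCm38) come from GENCODE release M21, which matched 54409 of 54842 gene identifiers, and promoter sequences from RefSeq. Levels per kilobase divide by the length of all exons that GENCODE lists for a gene, with overlapping bases counted once. All 4 columns were used.

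The filter asked for 10 counts or more in 2 or more libraries. edgeR 4.0.16 (R 4.3.3) fitted genes and repeat families together, with TMM factors and genotype as the only term, and every adjusted p is from its quasi-likelihood test with Benjamini-Hochberg adjustment over 26566 features, unless DESeq2 (1.42.0) is named. The smallest exact two-sided permutation p for 2 libraries against 2 is 0.33. Replicates differed beyond sampling noise, as chi-square over its degrees of freedom was 3.65 for wt and 5.07 for Top2β-null. The fits were tested on simulated data.

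The members and lists were chosen with earlier results of these data known. Every member is named with its log2 fold change. Values in each library are given for members beyond 0.5 on the log2 scale with an adjusted p below 0.05. In each role group they are also given for the members with the largest and smallest change. The 4 genes with the largest change at a mean above 100 are named in 4 further lists. These are the other replication genes, the E2F and related factors, the G1/S regulators and the G2/M genes. Vps35, Pcna-ps2, Dcn, Itgam, Kdr, Tek, Foxm1, E2f4, Gse1, Gm10143, Ap4m1, Cops6, Nif3l1 and Gm12743 were named after their values were seen. Alternatives were DESeq2, other scalings and filters, genes fitted alone, a replicate block, and leaving out each library. Leaving out members that share exon bases and taking values relative to the chromosome were added after seeing the data.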

Additional observations from a re-analysis of the deposited data

How the results depend on the processing

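Of the 34 members past an adjusted p of 0.05, none reversed under the alternatives tried, and 30 kept direction and call under all of them. Mcm5, Gins4, Pold1 and Rrm1, all with log2 fold changes between -0.13 and 0.078, lost the call under at least 1 alternative, and Rfc1, Pola1 and Cdt1 gained it under some, Cdt1 as higher when scaled to the total count (adjusted p = 0.042). Orc6 stayed the only member past the cut-off of 1 in every setting. A log2 difference under about 0.1 is within what the choice of scaling moves, since scaling to the total count moved the median over all genes from -0.0058 to 0.064.

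The median over the members, -0.033, was -0.025 with DESeq2, -0.021 with TMM from genes only, -0.016 with low counts left unfiltered, 0.037 when scaled to the total count, -0.014 with genes fitted alone, -0.12 relative to the chromosome medians, and between -0.041 and -0.021 when 1 library was left out. Without the 7 members that share 10% or more of their exon bases with another gene, 11 were higher, 17 were lower and the median was -0.039. Of the members not past the threshold, 5 changed sign. The log2 fold change of Cdt1 was 0.0022 with DESeq2, 0.0065 with TMM from genes only, 0.064 when scaled to the total count, 0.011 without the filter, 0.0010 under the filter at 100 counts, 0.013 with genes fitted alone, and between -0.028 and 0.020 with 1 library left out. That of Gmnn was 0.0014 with TMM from genes only, 0.059 when scaled to the total count, 0.0063 without the filter, 0.0083 with genes fitted alone, and between -0.028 and 0.024 with 1 library left out. Scaled to the total count, Mcm6 was at 0.043 and Lig1 at 0.031. With 1 library left out, Mcm6 lay between -0.040 and 0.00030 and Gins3 between -0.024 and 0.061.

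Scaled to the total count, 1 of the other replication genes was called lower in place of 3 and 1 G1/S regulator was called higher in place of 0 (Ccne1), a count that lay between 0 and 1 with 1 library left out, being 1 without wt replicate 2. The median of the other replication genes was -0.018 when scaled to the total count, -0.070 without the filter, -0.068 with genes fitted alone and between -0.096 and -0.071 with 1 library left out. The median of the E2F list was 0.026, -0.027 and -0.025 under the same alternatives and between -0.066 and -0.021. That of the G1/S regulators was 0.050 when scaled to the total count and between -0.048 and 0.031 with 1 library left out. That of the G2/M genes was 0.17, 0.12 and 0.12, and between 0.068 and 0.11. The cause of these shifts was not tested.

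Nothing in the labels says that libraries with the same replicate number were paired. Same-numbered libraries deviated from their group means with a correlation of 0.020 over 17952 features. With so few libraries this cannot decide whether they were paired. With the replicate number as a block, 15 members were higher and 19 lower, and the median was -0.033.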
